A study of Schizosaccharomyces pombe with 4 samples.

Results

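The windows described here lie on Tf2-1 to Tf2-13, the 13 full-length Tf2 retrotransposons of fission yeast, and were chosen because they touch 1 of these elements. They number 1132 of the 4012 windows in the table that compares the strains. Small RNA was sequenced from Schizosaccharomyces pombe in exponential growth in rich medium without treatment. The groups were wild type (WT, 2 libraries) and a strain with the genotype ABP1d (2 libraries), named for the protein Abp1, and the labels give no other allele for either. The authors pooled the libraries, so each window holds a single RPKM value a strain (reads scaled to window length and to the strain's total), and no spread between libraries can be given. RPKM times length gave whole reads for every window, and the totals so recovered were 23817270 reads (ABP1d) and 14466014 reads (WT). No file records strand, and sense was not told from antisense RNA.

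Tf2 is a retrotransposon with long terminal repeats (LTRs): its RNA is copied into DNA by its own reverse transcriptase and the copy is inserted by its own integrase. The LTRs carry the signals that start and end the RNA, and a single reading frame between them encodes the Gag protein, protease, reverse transcriptase and integrase. Abp1 is a homolog of the mammalian centromere protein CENP-B, is related to transposases and is known to bind LTRs and keep Tf2 silent. In this yeast, Dicer and Argonaute make and carry small RNAs that guide heterochromatin at repeats, but a small RNA library also takes up short breakdown products of longer RNA.

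Positions along the element are counted from 1 at the first base of the Tf2-1 5′ LTR, in the direction of transcription. Tf2-1 lies at chrI:1465332-1470247 on the plus strand (RefSeq ASM294v3, the source of every sequence here). Its 4916 bases hold a 5′ LTR at 1 to 349, the coding sequence at 516 to 4517 and a 3′ LTR at 4568 to 4916. The following windows are shown because they held the most ABP1d reads, and each lies within the coding sequence. Capitals mark bases that differ in at least 1 of the other elements, with Tf2-11 left out.
Positions 2634 to 2683 (chrI:1467965-1468014, plus strand): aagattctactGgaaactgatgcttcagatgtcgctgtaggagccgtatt
Positions 3728 to 3819 (chrI:1469059-1469150, plus strand): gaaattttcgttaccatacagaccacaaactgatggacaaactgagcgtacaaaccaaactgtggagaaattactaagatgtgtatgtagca
Positions 1056 to 1119 (chrI:1466387-1466450, plus strand): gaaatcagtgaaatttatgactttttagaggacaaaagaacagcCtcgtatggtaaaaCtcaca
Positions 4077 to 4128 (chrI:1469408-1469459, plus strand): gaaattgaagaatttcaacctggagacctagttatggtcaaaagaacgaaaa
Positions 1179 to 1225 (chrI:1466510-1466556, plus strand): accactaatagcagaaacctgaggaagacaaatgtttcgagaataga

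The next sequences are the LTR windows with the most WT reads, with capitals for the same kind of base. The first lies in the 3′ LTR, the second runs from the 5′ LTR into the leader before the coding sequence, and the third lies in the 5′ LTR.
Positions 4838 to 4901 (chrI:1470169-1470232, plus strand): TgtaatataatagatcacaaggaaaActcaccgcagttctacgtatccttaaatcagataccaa
Positions 298 to 368 (chrI:1465629-1465699, plus strand): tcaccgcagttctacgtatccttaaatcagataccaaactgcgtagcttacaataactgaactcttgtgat
Positions 271 to 295 (chrI:1465602-1465626, plus strand): Tgtaatataatagatcacaaggaaa

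In Tf1, the relative of Tf2 in this yeast, the start of the RNA folds back on the primer binding site just after the 5′ LTR and primes reverse transcription. The same pairing was looked for in Tf2-1. Capitals here mark the 11 bases of the primer binding site and the 11 bases of the LTR that are their reverse complement.
Positions 330 to 380, LTR border and primer binding site (chrI:1465661-1465711, plus strand): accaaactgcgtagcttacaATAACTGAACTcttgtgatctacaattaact
Positions 159 to 209, LTR around the complement (chrI:1465490-1465540, plus strand): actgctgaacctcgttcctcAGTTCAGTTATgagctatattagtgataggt

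Small RNA on Tf2 was higher in ABP1d in every listed window. All 1132 windows were at least 2-fold higher in ABP1d by RPM (reads per 1e6 of the total of a strain), where a pooled strain listed at 0 was set to 3 reads, the floor used here. The same held for 79.9% of all 4012 listed windows and for 72.0% of the 2880 listed windows outside Tf2. Higher in ABP1d by any amount were all Tf2 windows, 82.9% of all listed windows and 76.1% of those outside Tf2. The lowest ABP1d count in a Tf2 window was 10 reads, which against the floor already gives 2.02-fold. The 2-fold count therefore adds little to a window being listed at all. WT was listed at 0 in 925 Tf2 windows (81.7%), against 42.7% of all listed windows and 27.4% of those outside Tf2. With Tf2 windows of equal reads and length counted once, WT was at 0 in 78 of 109. With 0 set to the floor, the median log2 ratio was 3.40 over the Tf2 windows, 2.09 over all listed windows and 1.70 over those outside Tf2. In the authors' deposited table the p-values of Tf2 windows were at most 0.0456, and 468 of 1132 were listed as 0. That table holds windows the authors selected as different, so these shares describe the list and not the genome. A scaling that centres the ratios on all listed windows shifts every log2 ratio by -2.09. Relative to that median, 651 of the 1132 windows were at least 2-fold higher, against 30.0% of all listed windows and 19.2% of those outside Tf2. With totals without rRNA repeat windows the count was 964, against 60.3% of all and 50.5% outside Tf2. With 5S windows centred it was 838, against 46.9% and 36.3%, and with snRNA windows centred it was 651, against 30.3% and 19.6%.

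The 1132 windows hold few separate measurements. Their reads and lengths took 109 distinct combinations, since the elements are near copies, and 9 windows touch both Tf2-7 and Tf2-8, which stand in tandem and share an LTR. The authors' lists of small RNA regions within each strain held 0 Tf2 regions, among 309 in ABP1d and 190 in WT. The region with the fewest reads in the ABP1d list had 222 RPM, and the highest Tf2 window had 202 RPM. Windows could be shorter than a small RNA: 165 Tf2 windows were under 17 bases, and none of these held more than 15 reads. A window therefore need not span its reads, and a read may have been entered in neighbouring windows.

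Each of the 13 elements carried nearly the same amount. On Tf2-1 the windows held 21501 ABP1d reads (903 RPM, exact 95% Poisson interval 891 to 915) and 51 WT reads (3.53 RPM). The ratio was 256 (exact 95% binomial interval 195 to 344, counting error only, as for every interval here). Over the elements, ABP1d ranged from 20898 reads on Tf2-11 to 21667 on Tf2-8, with a median of 21575. WT ranged from 45 reads on Tf2-11 to 51 on Tf2-1 and Tf2-10, with a median of 47. ABP1d was above WT on every element, and the ratio intervals of all elements overlapped each other. Elements share reads and are not replicates, so their near-equal amounts are not separate measurements.

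**Figure D1:**
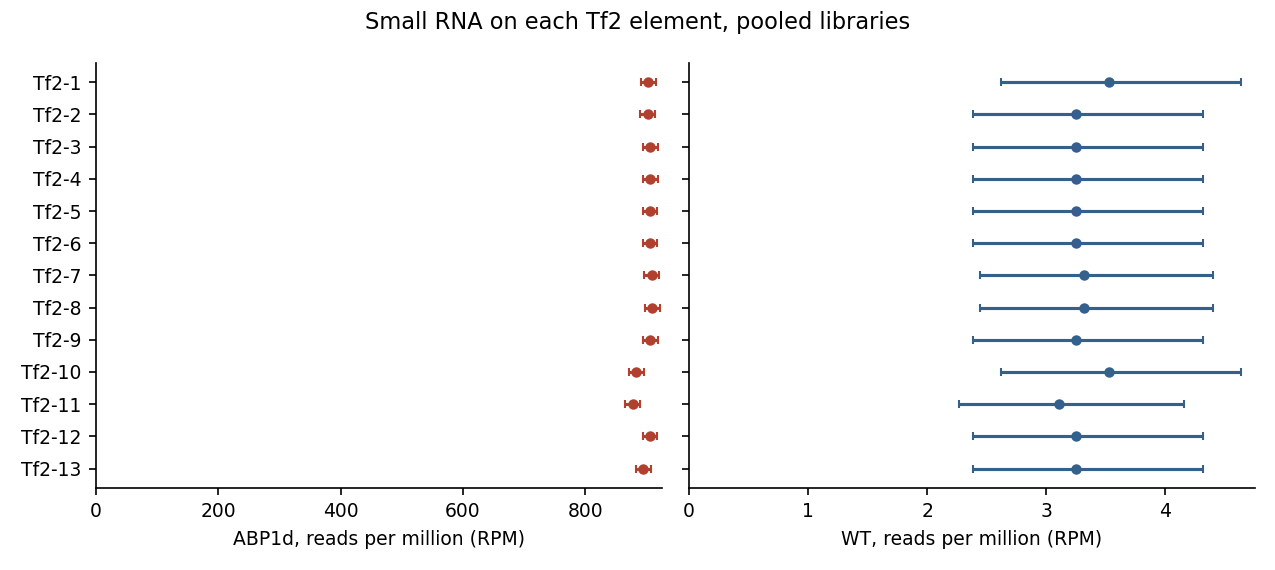
RPM on each Tf2 element in ABP1d (left) and WT (right), summed over the listed windows, with exact 95% Poisson intervals and axes that start at 0. ABP1d values lie between 877 and 910 RPM and WT values between 3.11 and 3.53 RPM.

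The small RNA of ABP1d was concentrated in a few places of the coding sequence. On Tf2-1, 5 of 90 windows held 53.5% of the ABP1d reads, and the top 10 held 69.9% in 576 bases, 11.7% of the element. The highest window, at 2634 to 2683, held 4804 ABP1d reads and 0 WT reads, 22.3% of the element's ABP1d reads and at least 973-fold higher than WT. The window at 3728 to 3819 followed with 2307 reads against 2. Both are among the sequences printed first above, and neither is part of an LTR.

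The window at 1056 to 1119 differed from these by its WT reads. It held 2137 ABP1d reads and 9 WT reads, and the ratio was 144 (75.8 to 316). All other internal windows together had 10 WT reads. The windows at 4077 to 4128 (1167 reads against 1) and 1179 to 1225 (1079 against 0) completed the 5 windows with over 1000 ABP1d reads.

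The rest of the profile was low and spread out. The windows ranked below these, at 4277 to 4339 (979 reads against 1), 1702 to 1744 (952 against 0), 1802 to 1846 (739 against 0) and 2516 to 2571 (451 against 1), also lie in the coding sequence. The tenth, at 4838 to 4901 in the 3′ LTR, held 414 reads against 10. The median window held 49.5 ABP1d reads, 22 of the 90 windows held 10 to 20, and 30 windows held 90% of the reads. The first window over the coding sequence, at 522 to 532, had 12 reads against 0, and the last, at 4502 to 4532, which runs past its end, had 95 against 1. Listed windows left out the first 66 bases and the last 15, and the longest stretch without a window was 93 bases. The window bases had 36.0% G and C, the top 10 windows 35.8% and the bases outside windows 31.2%.

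**Figure D2:**
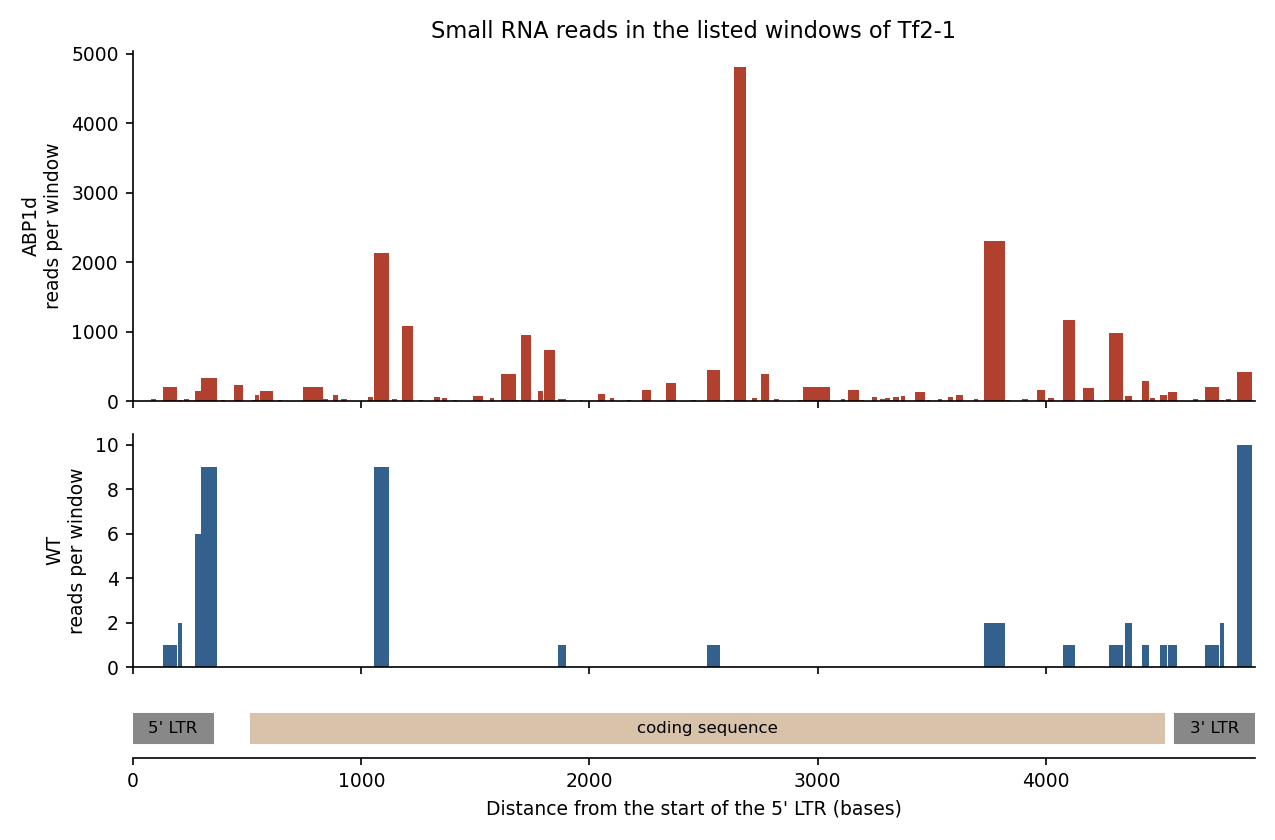
Reads per listed window along Tf2-1 in ABP1d (top) and WT (middle), against the distance in bases from the start of the 5′ LTR, with the LTRs and coding sequence drawn below; bars of very short windows are widened to 6 bases. The highest ABP1d bar, 4804 reads, has no WT bar under it, while the highest WT bars of 10 and 9 reads lie at the LTRs and at 1056 to 1119.

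Within the listed windows, the few WT reads were placed differently. They fell in 17 windows, 9 internal and 8 on LTRs, and 13 of the 17 held 1 or 2 reads. Reads on LTRs may be entered at both LTRs and may match LTRs elsewhere, so the 51 WT reads may not all be distinct. The LTR share of WT below carries that limit. The highest WT windows were 4838 to 4901 with 10 reads, 298 to 368 and 1056 to 1119 with 9 each, and 271 to 295 with 6. The fifth place was shared at 2 reads and includes the window at 197 to 213, with 13 reads against 2 and a ratio of 3.95 (0.894 to 36.0), whose interval holds 1. Had the 51 WT reads followed the ABP1d profile, 11.4 would lie on the highest ABP1d window, where 0 were listed. By the same arithmetic 47.1 would be internal, where 19 were listed. This arithmetic is a description and not a test. Every Tf2 window was listed with at least 10 ABP1d reads, so WT reads at places low in ABP1d may be missing. The highest window was also picked by its ABP1d reads. In bins of 500 bases, positions 2501 to 3000 held 27.8% of ABP1d reads and 1.96% of WT reads, while positions 1 to 500 held 4.92% and 35.3%. In positions 1001 to 1500 the shares were 16.1% and 17.6%.

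By density, the coding sequence lay above both LTRs in ABP1d and below both in WT. Reads at the LTRs may be entered at both copies and at LTRs elsewhere in the genome. In ABP1d it had 205 RPM per kb, followed by the 50 bases after it with 113, the 5′ LTR with 96.1, the 3′ LTR with 88.1 and the leader with 65.3. In WT it had 0.328 RPM per kb, the bases after it 1.38, the 5′ LTR 3.57, the 3′ LTR 2.57 and the leader 0. With windows placed by midpoint, the 5′ LTR was above the 3′ LTR and the leader was lowest in both strains. With border windows counted at the LTR they touch, the 3′ LTR held more ABP1d reads, 866 beside 799. In WT the 5′ LTR still held more, 18 beside 14. The leader, between the 5′ LTR and the coding sequence, had 258 ABP1d reads and 0 WT reads, at least 52.2-fold higher. The bases after the coding sequence were represented by a single window of 134 reads against 1.

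**Figure D3:**
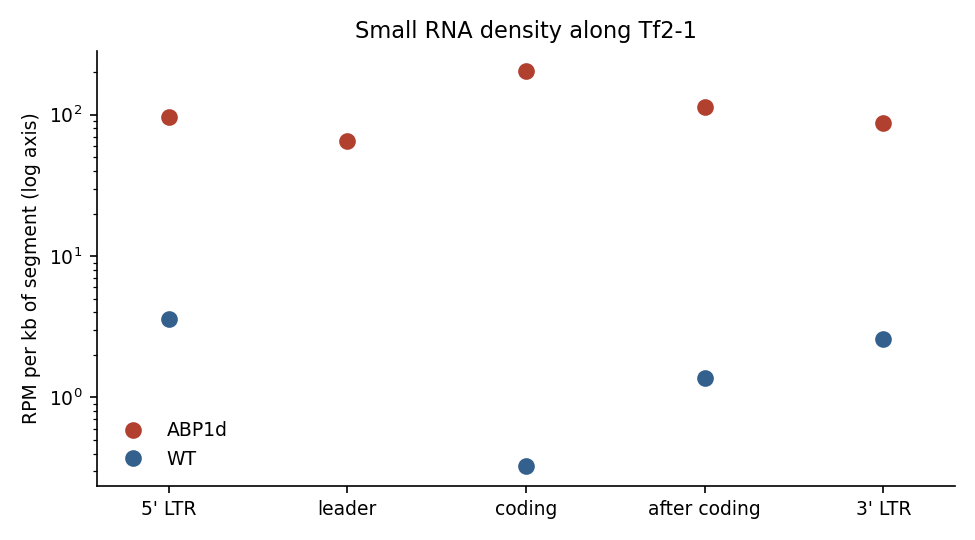
RPM per kb of segment on Tf2-1 for ABP1d and WT on a log axis, with windows placed by their midpoint; WT in the leader was listed at 0 and is not drawn. The coding sequence is the highest segment in ABP1d, at 205, and the lowest of those drawn for WT, at 0.328. LTR reads may also be entered at LTRs elsewhere.

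LTR and internal windows differed in how far they were above WT. LTR windows of Tf2-1, those touching an LTR border included, held 1665 reads against 32, a ratio of 31.6 (22.3 to 46.4). Internal windows held 19836 against 19, a ratio of 634 (406 to 1053), and these intervals do not overlap. Without the window at 1056 to 1119 the internal WT reads fall to 10. Over the elements, which share reads, internal windows held 91.2% to 92.7% of ABP1d reads and 29.4% to 42.6% of WT reads. At the LTRs the 5′ copy had 799 reads against 18 (27.0, 16.9 to 45.7) and the 3′ copy 866 against 14 (37.6, 22.3 to 69.0), intervals that overlap. Reads entered at both LTRs or in neighbouring windows make these intervals narrower than counting error.

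The LTRs cannot be assigned to Tf2 elements by these reads. Of 9 windows of the 5′ LTR of Tf2-1, 7 had a window at the same place of the 3′ LTR with the same reads in both strains, so the same reads may be entered at each. Every one of the 18 LTR windows also held or touched an 18-base stretch found outside the 13 elements. Outside the elements, 213 LTRs carried 464 listed windows. With windows of equal reads and length counted once, these were 140 windows with 18284 reads against 348, a ratio of 31.9 (28.7 to 35.6). With those that matched a Tf2 window in reads and length also left out, the ratio over 116 windows was 31.6 (28.1 to 35.7). The LTR ratio of Tf2-1 lies within the same range as that of LTRs elsewhere, and the internal ratio lies above both.

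Internal windows were also split by whether an 18-base stretch of them occurs outside the 13 elements. The 57 with such a match held 12518 reads against 17, a ratio of 447 (279 to 768). The 15 without one held 7318 against 2, a ratio of 2222 (615 to 18354), which includes the highest window. The intervals overlap, and no 18 bases of these 15 windows were found elsewhere in the assembly.

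**Figure D4:**
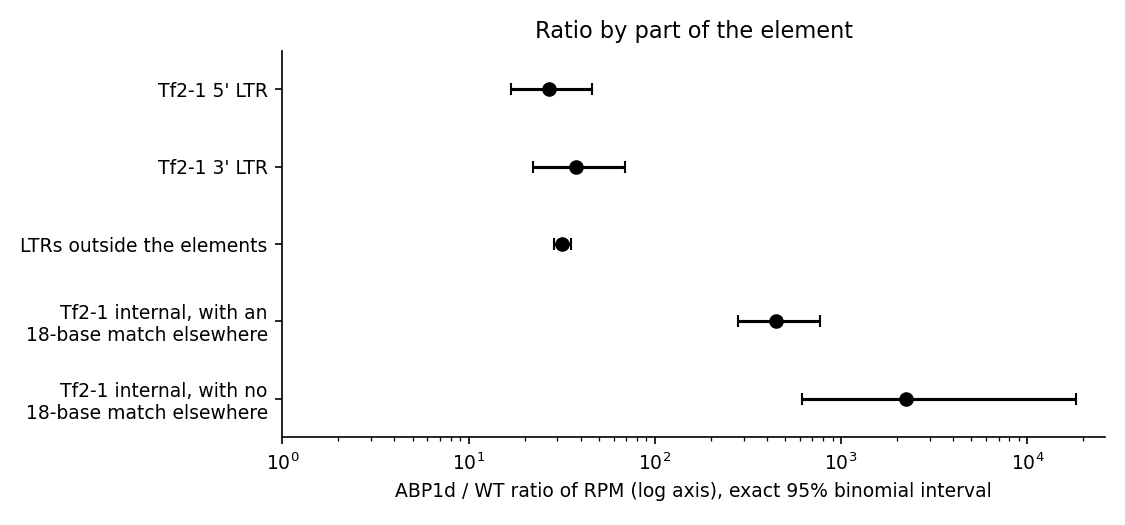
ABP1d to WT ratio of RPM on a log axis with exact 95% binomial intervals, for the LTRs and the internal windows of Tf2-1 and for LTRs outside the 13 elements (windows of equal reads and length counted once). The 3 LTR ratios lie between 27.0 and 37.6, below the internal ratios of 447 and 2222.

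Windows over the sites of reverse transcription held small RNA in ABP1d, at fewer reads than the coding windows ranked highest. The window over the primer binding site, 298 to 368, had 340 reads against 9 (22.9, 11.9 to 50.6). The window at 132 to 190, which contains the LTR's complement of that site, had 212 against 1. Bases 298 to 349 of the first window belong to the LTR, and the site itself is at 350 to 360. Each window holds an 18-base stretch found 72 times outside the 13 elements. Their reads may therefore belong to LTR sequence at other places, and none is shown to lie on the site. Both had fewer ABP1d reads than any of the 10 windows ranked highest, while the 9 WT reads at the border are among the highest counts of that strain. The window at 4536 to 4574 spans the purine-rich stretch next to the 3′ LTR, where synthesis of the second DNA strand starts in such elements, and it had 134 reads against 1. The first and last windows of the 5′ LTR were 67 to 68 (10 reads against 0) and 298 to 368, and those of the 3′ LTR were the border window at 4536 to 4574 and 4838 to 4901.

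Elements that differ in a few bases differed in listed reads at those bases. Elements share reads, so loci near such a base are where their counts could differ. The counts do not show which element made the RNA. Identity to Tf2-1 was 99.6% to 99.96% over the elements other than Tf2-11, which was 97.8% identical and has a 5′ LTR of 293 bases. Of 90 aligned loci, 72 had the same reads in all 12 elements when Tf2-11 was left out and 18 differed. All 9 loci that contain a base differing between the elements were among the 18. Of the 18, 17 lay within 38 bases, the number of sequencing cycles, of such a base, as did 14 of the 72 loci with equal reads. The remaining one lies at the 5′ edge of Tf2-7, where the window of 134 reads at the border of the shared LTR also touches Tf2-8.

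The largest differences tied to a base are given next, named with the Tf2-1 base first, its position and then the base of the other element. At 1056 to 1119, printed above, Tf2-10 has C1100T and C1114T and held 1812 reads, against a median of 2136. At 2751 to 2787, Tf2-13 has G2778del and held 118 reads against a median of 392. At 4536 to 4574, Tf2-2 has G4557A in the purine-rich stretch and held 35 reads against 134. Listed windows also differed in extent between elements. The 3′ LTR of Tf2-2 had 8 windows of 204 bases in all, against 9 of 236 in Tf2-1. Internal windows covered 2190 bases in Tf2-13 and 2197 in Tf2-1. How far lower counts go with shorter windows was not tested. In the 3 loci named here the element with the changed bases was the lowest. The next sequence shows where the last of these changes falls, in capitals.
Positions 4528 to 4567 of Tf2-1, before the 3′ LTR (chrI:1469859-1469898, plus strand): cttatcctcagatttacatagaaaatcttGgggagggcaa

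Other changes went both ways. At 442 to 480, Tf2-3, Tf2-5, Tf2-6, Tf2-7, Tf2-8 and Tf2-12 share A460G and held 268 reads, while the elements without it other than Tf2-11 held 241. Tf2-11 held 78 there. At the highest window, Tf2-7 and Tf2-8, which have G2645A, and Tf2-11 held 4746 reads against 4804 elsewhere. The locus at 271 to 368 had 481 reads in Tf2-1 and Tf2-10, where it is listed as separate windows, and 564 to 569 in the other elements with a full LTR, which have G296A. Windows were missing from the list at 2593 to 2613 in Tf2-7 and Tf2-8 (T2600G) and in Tf2-10 (C2601del), and at 3827 to 3843 in Tf2-10 (A3827G). The median there was 24 and 17 reads. In the 3′ LTR, the locus at 4838 to 4916 held 569 reads in Tf2-8, which shares that LTR with Tf2-7, and 325 in Tf2-10, which has A4863G, against a median of 413. The number of mismatches allowed in the alignment is unknown from the labels and files, and the part of read placement in these differences was not tested.

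**Figure D5:**
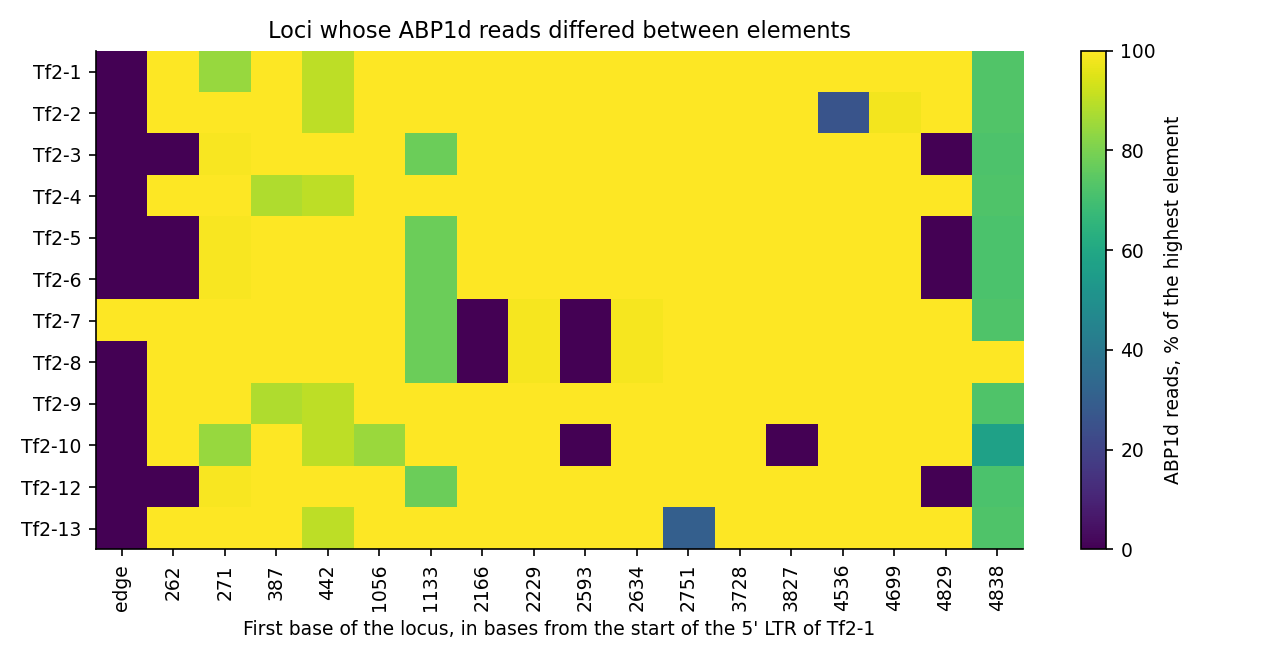
ABP1d reads at the 18 loci that differed between 12 elements (Tf2-11 left out), as a percent of the element with the most reads, by the first base of the locus; the locus named edge lies at the 5′ edge of Tf2-7. Most cells are at or near 100, and the low cells include 2751 in Tf2-13 (118 reads, median 392) and 4536 in Tf2-2 (35 reads, median 134).

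Fragments of Tf2 elsewhere in the genome were also listed with more reads in ABP1d. The same reads may be entered at a fragment and at Tf2, so these counts do not show that a fragment makes small RNA. A stretch at chrI:2940231-2941943, 99.9% identical to positions 350 to 2062 of Tf2-1, held 7312 reads against 21, beside 7181 against 19 in that stretch of Tf2-1, and 25 of its 30 windows equalled those of Tf2-1. A shorter one at chrI:2939711-2940062 was 100% identical and held 481 reads against 0, beside 489 in Tf2-1. More distant copies held a smaller percent of the ABP1d reads of their own stretch of Tf2-1, and the stretches differ between copies. The copy at chrIII:1196078-1196481, 96.8% identical, had 1433 reads against 3, 78.1% of the same stretch of Tf2-1. The copy at chrIII:254443-256307, 93.0% identical, had 995 against 3, or 13.6%.

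Beside the elements, the listed windows were of several kinds. Within 1000 bases of the 13 elements, over 24 flanks, 9 listed windows lay beside 6 elements, or 0.375 windows per kb, against 0.220 per kb over the chromosomes outside the elements. A 5S rRNA gene lies 213 bases from Tf2-2, with 179423 reads against 45382 and a ratio of 2.40, and 3 windows contain an A/T run of 15 bases or more. Those 3 were the flank windows with a ratio under 1, with 11318 reads against 7924 near Tf2-5 (ratio 0.868), 38 against 44 near Tf2-9 (0.525) and 16921 against 11783 near Tf2-11 (0.872). The window nearest to an element, 76 bases from Tf2-4 and with no annotation, held 64 reads against 0. The other 4 held 10 to 24 ABP1d reads. Of the 24 nearest coding genes, 20 are transcribed away from the element, at a median distance of 592.5 bases. A listed window lay on 7 of the 24 (29.2%), against 779 of the 5100 coding genes outside Tf2 (15.3%).

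Of 25 genes known to act on Tf elements or on small RNA in this yeast, 3 (12.0%) had a listed window, close to the 15.3% of all coding genes: sin1 (10 ABP1d reads against 0 WT reads), swi6, which encodes the heterochromatin protein that binds methylated histone H3 (50 against 10), and red1, which takes part in the removal of meiotic RNA (12 against 0). The gene of Abp1 itself, named cbp1 in the annotation (chrII:3510427-3512370), and its paralogs cbh1 and cbh2 had 0 listed windows, so these files hold no check of the genotype.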

How the data were processed

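Small RNA libraries of WT and ABP1d (2 of each) were read for 38 cycles, per the labels' protocols. The submitters' processing notes name Bowtie 0.12.5. Not given in the sources used here are the build, filters on reads, how multiple matches were handled, the region caller and the test. The authors deposited 3 region files of RPKM values and p-values, pooled over the libraries of a strain, so depth per library is unknown. Unnamed value columns in the comparison table were identified through shared coordinates: 7 of 7 regions shared with the ABP1d list equalled the first column and 124 of 124 shared with the WT list the second.

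Whole reads and strain totals were recovered from the steps of RPKM times length (largest distance from a whole number 4e-09). A count test had been foreseen for reads per library. With pooled RPKM no test was made, and ratios of RPM carry exact 95% binomial intervals (Poisson for levels), which cover counting error only. A count of 0 was set to 3 reads and the ratio given against that floor.

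Starts were read as 1-based with the end base left out. Under that reading 749 of 792 windows of the minus-strand elements fell on a Tf2-1 window with the same reads, and 0 of 792 when starts were read as 0-based. Elements, LTRs and genes come from RefSeq ASM294v3. Elements were aligned with MAFFT 7.526, copies were found with BLASTN 2.17.0, and other steps used Python 3.11.15, NumPy 2.4.6, pandas 2.3.3, SciPy 1.17.1, Biopython 1.88 and Matplotlib 3.10.9. The scripts were tested on simulated data.

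The windows named on Tf2-1 are the 10 with the most ABP1d reads, the 5 with the most WT reads, the ends of the LTRs and coding sequence, the primer binding site and the purine-rich stretch. On other elements they are windows farthest from the median at the same aligned position. The complement of the primer binding site, the missing windows, the flanks and the partial copies were chosen after their values were seen. Members, gene list and rules were chosen with earlier results of these data known.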

Additional observations from a re-analysis of the deposited data

How the results depend on the processing

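No paired analysis was possible because the deposited values are pooled over the libraries of a strain, and leaving out each library was not run for the same reason. Scaling moved every ratio. With totals without rRNA repeat windows, 5S windows centred, snRNA windows centred and all listed windows centred, in that order, the Tf2-1 ratio of 256 became 162, 108, 62.5 and 60.2. The LTR ratio of 31.6 became 19.98, 13.3, 7.72 and 7.43, and the internal ratio of 634 became 401, 266, 155 and 149. The internal ratio stayed above the LTR ratio in each, since a scaling moves both alike. Windows at least 2-fold higher numbered 964, 838, 651 and 651 of 1132 under these scalings, against 60.3%, 46.9%, 30.3% and 30.0% of all listed windows, and 109 when equal windows were counted once, which are all the distinct windows. The window at 197 to 213 turned from 3.95 to 0.964 with snRNA windows centred and 0.929 with all windows centred. Loci that differ between elements numbered 29 with Tf2-11 and 18 without it, a comparison added after seeing the data along with the reading of starts, under which they numbered 36. Of the 52 alternative values of named windows, 30 moved beyond their interval, 20 did not and 2 reversed. With 0 to 10 WT reads in a Tf2-1 window, counting error in WT limits every ratio.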
